A study of Mus musculus with 6 samples.

Results

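The enzymes that make serine and pass its carbon on to folate were measured in the whole heart of mice aged 8 weeks, with 1 Affymetrix GeneChip array for each mouse. The set holds 10 genes (Psat1, Phgdh, Psph, Shmt1, Shmt2, Mthfd1, Mthfd2, Mthfd1l, Aldh1l1 and Aldh1l2) of 18193 genes with a probe set of their own. They were chosen by function, with earlier results of these data known. Every probe set whose platform annotation names 1 of these genes and no other was taken, which gave 24 probe sets. A further 2 probe sets that Phgdh shares with another gene were left out. DNMTs-Tg hearts (replicates 1, 5 and 6) came from mice with transgenes for DNMT3A2, a short form of a de novo DNA methyltransferase, and for DNMT3L, its inactive partner, active in many somatic tissues. These mice descend from females with Cre under the germ-cell gene Ddx4 and males carrying a floxed construct. The labels do not say whether Cre was still present. Wild-type hearts (replicates 1, 4 and 6) were the other group, with no statement that they were littermates. The study asked which genes are silenced by the ectopic proteins. DNA methylation was not analysed here.

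Serine is made from a glycolytic intermediate in 3 steps, by phosphoglycerate dehydrogenase (Phgdh), phosphoserine aminotransferase (Psat1) and phosphoserine phosphatase (Psph). Serine hydroxymethyltransferases (Shmt1 in the cytosol, Shmt2 in mitochondria) move a carbon from serine to tetrahydrofolate, and parallel cytosolic and mitochondrial enzymes oxidise it to formyl-tetrahydrofolate, which is needed for purines, or release it as formate. The formyl-tetrahydrofolate dehydrogenases (Aldh1l1 in the cytosol, Aldh1l2 in mitochondria) burn that carbon to carbon dioxide. Psat1, Phgdh, Shmt2 and Mthfd2 are known as targets of the stress-induced transcription factor ATF4. This branch is known to be switched on in muscle and heart with mitochondrial dysfunction. The list of targets is not complete. Of the genes not named in it, Aldh1l2 lay lower in DNMTs-Tg hearts without overlap (log2 change -0.79, limma adjusted p = 0.0594). Mthfd1l lay higher with overlap (log2 change 0.48, limma adjusted p = 0.188). Whether ATF4 acted on any gene of the set was not tested.

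In DNMTs-Tg hearts Psat1, an enzyme of serine synthesis, and Mthfd2, a mitochondrial folate enzyme, rose by 0.92 and 1.00 on the log2 scale, and Aldh1l1, which disposes of folate-bound carbon, fell by 1.03. The other 7 genes did not pass the threshold. In limma's test over all 13634 genes, with Benjamini-Hochberg adjustment, 3 of the 10 genes passed an adjusted p of 0.05, against 5.39% of all genes tested. Of the 10, 2 passed as higher (2.24% of all genes) and 1 as lower (3.15% of all genes). The DNMTs-Tg and wild-type values did not overlap for 7 of the 10, against 34.9% of all genes. Of the 10, 3 lay higher without overlap in DNMTs-Tg hearts (17.3% of all genes) and 4 lower (17.6% of all genes). At an unadjusted p under 0.05 there were 6 of 10, against 26% of all genes. The median change of the 10 genes was -0.03 and that of all genes 0.0055, since 5 lay above 0 and 5 below. The median size of the change, whatever its sign, was 0.54 for the 10 genes and 0.20 for all genes. As the 10 genes were chosen with earlier results of these data known, these shares describe the set and do not test it.

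The transgenes encode a DNA methyltransferase and its inactive partner, and CpG sites are where such an enzyme acts. The promoters of the 3 genes that passed are therefore shown, with CpG sites in capitals. Each is 300 bases, from 250 before to 50 after an annotated start (RefSeq, build GRCm38.p6), written 5′ to 3′ along the gene. Psat1 has 2 annotated starts on the minus strand of chromosome 19, chr19:15925010-15925309 with 20 CpG sites and chr19:15924573-15924872 with 30. Mthfd2 lies on the minus strand at chr6:83317555-83317854, with 15 sites, and Aldh1l1 on the plus strand at chr6:90550543-90550842, with 9.
Psat1, upstream start: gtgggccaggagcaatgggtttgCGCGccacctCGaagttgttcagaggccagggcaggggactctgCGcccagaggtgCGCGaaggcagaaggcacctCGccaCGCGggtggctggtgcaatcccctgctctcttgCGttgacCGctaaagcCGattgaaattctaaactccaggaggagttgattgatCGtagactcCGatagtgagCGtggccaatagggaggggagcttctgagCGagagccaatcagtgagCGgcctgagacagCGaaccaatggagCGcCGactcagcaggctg
Psat1, downstream start: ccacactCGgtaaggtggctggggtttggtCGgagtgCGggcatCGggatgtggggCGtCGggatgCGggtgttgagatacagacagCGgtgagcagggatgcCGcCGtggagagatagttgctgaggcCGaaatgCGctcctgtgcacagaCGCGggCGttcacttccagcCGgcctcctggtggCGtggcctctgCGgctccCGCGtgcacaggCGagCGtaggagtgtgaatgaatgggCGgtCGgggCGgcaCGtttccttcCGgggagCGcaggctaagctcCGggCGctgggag
Mthfd2: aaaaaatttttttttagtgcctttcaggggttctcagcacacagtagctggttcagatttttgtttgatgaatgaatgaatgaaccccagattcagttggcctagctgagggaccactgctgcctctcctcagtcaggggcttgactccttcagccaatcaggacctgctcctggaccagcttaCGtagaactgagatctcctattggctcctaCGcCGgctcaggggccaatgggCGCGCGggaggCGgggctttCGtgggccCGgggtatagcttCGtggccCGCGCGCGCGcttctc
Aldh1l1: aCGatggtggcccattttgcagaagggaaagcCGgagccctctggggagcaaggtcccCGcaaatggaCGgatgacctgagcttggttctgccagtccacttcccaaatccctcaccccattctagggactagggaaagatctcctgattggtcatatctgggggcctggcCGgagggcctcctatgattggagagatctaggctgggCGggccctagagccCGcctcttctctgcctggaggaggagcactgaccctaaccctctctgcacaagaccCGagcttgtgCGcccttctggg
Sequences matched 9 of the 10 genes, all but Aldh1l2, with 10 windows in all. The CpG count was 9 in the window of Aldh1l1, which fell, and 15 to 30 in those of Psat1 and Mthfd2, which rose. The median over all 32851 windows was 7, and each of the 10 windows lay above it, from 8 in Mthfd1l to 30 in Psat1. Whether any of these sites was methylated is not known here. The core of the amino acid response element, TGATGNAA, was searched on both strands and was not found in the 10 windows, while 3.97% of all windows hold it. The E-box CACGTG was not found in the 10 windows either (7.15% of all windows). At shares this low, absence from 10 windows says little, and sequence outside the windows was not searched. The palindromic core of the NRF1 motif occurred in 1 window, that of Shmt2, at bases 232 to 241 (0.971% of all windows).

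Median log2 signals of the arrays lay between 5.28 and 5.33. Dnmt3l was at 12.29 ± 0.09 in DNMTs-Tg and 5.31 ± 0.15 in wild-type hearts (SD, n = 3 each), which sets the groups apart as the labels do. Cardiac muscle genes were bright on all arrays, with Myl2 at 14.44 to 14.73. Of 10 such markers 8 lay below 0 in their change and 8 did not overlap between the groups (34.9% of all genes). With limma 0 of them passed, and 2 had an unadjusted p under 0.05 (26% of all genes). Their mean relative to wild-type was -0.24, -0.04 and -0.01 in DNMTs-Tg replicates 1, 5 and 6, against -0.01 to 0.02 in wild-type hearts. The labels call 5 mice female and wild-type replicate 6 male. Y-linked Eif2s3y, however, had 9.41 to 9.52 on 5 arrays and 3.32 on that of wild-type replicate 4, the 1 array with high Xist (10.10), so 4 mice went against their label. The 3 DNMTs-Tg arrays were thus of male type, and the wild-type arrays 2 of male and 1 of female type. Of 11 macrophage markers 10 lay above 0 in their change, 0 passed with limma and 1 had an unadjusted p under 0.05, Lgals3, at 9.61, 7.79 and 7.20 in DNMTs-Tg hearts, against 6.57, 5.66 and 5.88 in wild-type hearts. Their mean relative to wild-type was 1.53, 0.01 and 0.05 in DNMTs-Tg replicates 1, 5 and 6, against -0.14 to 0.09 in wild-type hearts. Fibroblast markers (7 of 11 above 0, 0 past limma's threshold, 3 at an unadjusted p under 0.05) had 1.03, 0.15 and 0.12 in those DNMTs-Tg hearts, against -0.17 to 0.24 in wild-type hearts. RNA integrity was read from Gapdh, whose 3′ probe set exceeded its 5′ probe set by a log2 difference of 0.66 ± 0.12 in DNMTs-Tg and 0.43 ± 0.06 in wild-type arrays (SD, n = 3 each). That of Actb was 1.12 ± 0.25 in DNMTs-Tg and 1.15 ± 0.09 in wild-type arrays. As whole tissue was measured, fewer cells of a type and less RNA per cell cannot be told apart. Whether the mice of a group came from separate litters is not stated.

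Serine synthesis is described first. Psat1 had log2 signals of 7.10, 6.63 and 6.71 in DNMTs-Tg replicates 1, 5 and 6, against 5.91, 5.80 and 5.96 in wild-type replicates 1, 4 and 6. All DNMTs-Tg hearts lay above all wild-type hearts, replicate 1 the highest and the wild-type values close together. The means were 6.81 ± 0.25 in DNMTs-Tg and 5.89 ± 0.08 in wild-type hearts (SD, n = 3 each), 1.90-fold higher (log2 change 0.92 ± 0.15, SE, limma adjusted p = 0.0209). The other Psat1 probe set, which may share probes with related transcripts, had 6.13, 5.18 and 5.57 in DNMTs-Tg hearts, against 4.61, 4.14 and 4.67 in wild-type hearts. It again did not overlap, and its change was 1.16, which did not pass when all 45037 probe sets were tested without a filter (adjusted p = 0.0612). In wild-type hearts that probe set did not reach the 40th percentile of any array, so it passed the filter on low values only through the DNMTs-Tg arrays.

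Phgdh, the first enzyme of the pathway, is read by 4 probe sets whose changes were unlike. The one with the highest mean had 7.24, 7.33 and 7.25 in DNMTs-Tg hearts, against 7.36, 7.31 and 7.60 in wild-type hearts, and the groups overlapped (log2 change -0.15, 95% confidence interval -0.43 to 0.13, adjusted p = 0.459). Another had 7.93, 7.20 and 6.998 in DNMTs-Tg hearts, against 6.43, 6.88 and 6.93 in wild-type hearts. These did not overlap, with DNMTs-Tg replicate 1 far above the other arrays, but the change of 0.63 did not pass (adjusted p = 0.227 among all probe sets). The remaining probe sets stood at 0.50 (adjusted p = 0.287) and 0.01 (adjusted p = 0.973). All 4 carry a suffix for probes that may bind other transcripts, so no single direction is given for Phgdh.

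Psph, which takes the phosphate off phosphoserine, had 7.13, 7.07 and 7.24 in DNMTs-Tg hearts, against 7.25, 7.45 and 7.32 in wild-type hearts. The groups did not overlap, by the narrow gap between DNMTs-Tg replicate 6 and wild-type replicate 1, and the change of -0.19 did not pass (95% confidence interval -0.46 to 0.07, adjusted p = 0.323). The changes of the 3 enzymes were then compared within arrays. With the brightest probe set of each gene, the change of Psat1 exceeded that of Phgdh by 1.07 and that of Psph by 1.11 (log2, within arrays). For both pairs the groups did not overlap (exact permutation test, 2-sided p = 0.1, the smallest that 3 against 3 arrays allow, and 0.15 after Benjamini-Hochberg adjustment over 6 pairs). These pairs were chosen after their values were seen. The size of the difference to Phgdh depends on the probe set. Over the 8 combinations of their probe sets it ran from 0.29 to 1.31, and in 4 of them the groups overlapped. For Psat1 and Psph both combinations were without overlap, at 1.11 and 1.35.

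**Figure D1:**
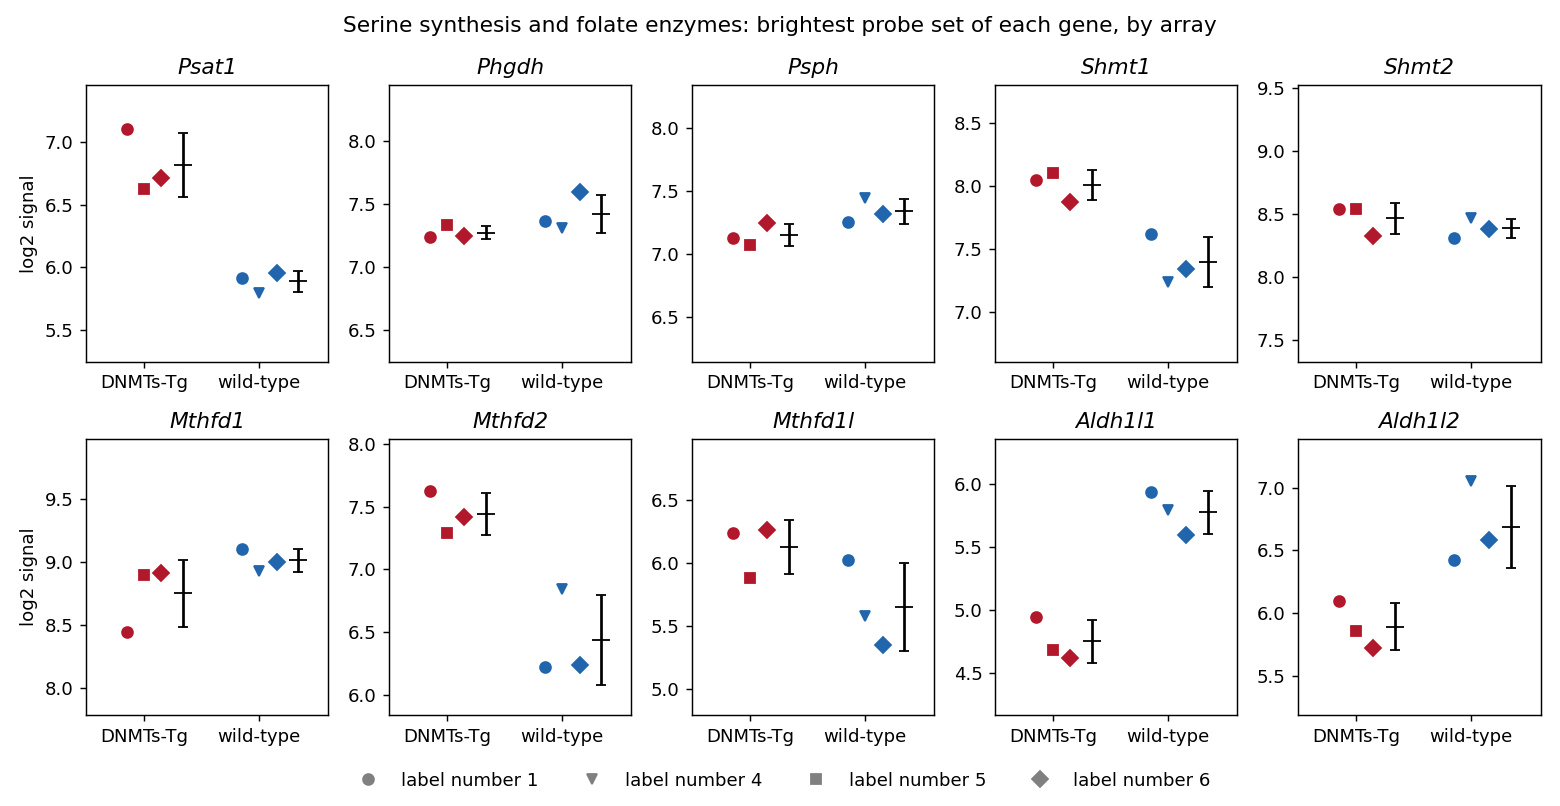
Log2 signal of the brightest probe set of each of the 10 genes on each array, DNMTs-Tg in red and wild-type in blue, with the mean and SD in black (n = 3 per group). All axes span the same range of log2 units. Psat1 and Mthfd2 lie higher and Aldh1l1 lower in DNMTs-Tg hearts without overlap, while the Phgdh, Shmt2 and Mthfd1l groups overlap.

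The serine hydroxymethyltransferases came next in the pathway. Shmt1, the cytosolic form, had 8.05, 8.10 and 7.87 in DNMTs-Tg hearts, against 7.62, 7.23 and 7.34 in wild-type hearts. The groups did not overlap, and the change of 0.61 ± 0.14 (SE) fell just short of the threshold (adjusted p = 0.0530). It passed with a filter at the 60th percentile (adjusted p = 0.0461), where fewer genes were tested, and without DNMTs-Tg replicate 6 (adjusted p = 0.0378). That was its only call in the 6 fits with an array left out, and without wild-type replicate 4 the adjusted p was 0.179. With the mean of its kept probe sets Shmt1 stood at 0.43 (adjusted p = 0.126). A second probe set had 8.30, 8.23 and 7.55 in DNMTs-Tg hearts, against 7.25, 7.02 and 6.94 in wild-type hearts, a change of 0.96 (adjusted p = 0.0643 among all probe sets). The remaining Shmt1 probe sets overlapped, at -0.13 (adjusted p = 0.731) and 0.27 (adjusted p = 0.509).

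Shmt2, the mitochondrial form, had 8.54, 8.54 and 8.33 in DNMTs-Tg hearts, against 8.31, 8.47 and 8.38 in wild-type hearts. The groups overlapped on all 4 of its probe sets, whose changes ran from -0.10 to 0.08. For the brightest the 95% confidence interval was -0.18 to 0.35 (adjusted p = 0.677). The brightest probe sets of Shmt1 and Shmt2 both carry a suffix for probes that may bind other transcripts. With these probe sets, the change of Shmt1 exceeded that of Shmt2 by 0.53 within arrays, with no overlap between the groups (exact permutation test, 2-sided p = 0.1, adjusted 0.15 over the 6 pairs). Over the 16 combinations of their probe sets this difference ran from -0.22 to 1.06, with overlap in 7, so its direction depends on the probe set.

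Mthfd2, the mitochondrial enzyme that oxidises methylene-tetrahydrofolate and is known to be low in most adult tissues, was read by 2 probe sets. The brighter had 7.62, 7.29 and 7.42 in DNMTs-Tg hearts, against 6.22, 6.85 and 6.24 in wild-type hearts. All DNMTs-Tg values lay above all wild-type values, and wild-type replicate 4, the array of female type, stood above the other wild-type arrays. The means were 7.44 ± 0.17 in DNMTs-Tg and 6.44 ± 0.35 in wild-type hearts (SD, n = 3 each), 2.01-fold higher (log2 change 1.00 ± 0.20, SE, adjusted p = 0.0341). The other probe set showed the same order of arrays within wild-type, with 7.67, 7.01 and 6.84 in DNMTs-Tg hearts, against 5.05, 6.06 and 5.07 in wild-type hearts. Its change was 1.78, and both probe sets passed among all 45037 (adjusted p = 0.0424 for the brighter and 0.0328 for the other). Without wild-type replicate 4, that is among arrays of male type alone, the brighter stood at 1.21 (adjusted p = 0.0298).

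Mthfd1l, which releases formate from mitochondria, had 6.24, 5.88 and 6.26 in DNMTs-Tg hearts, against 6.03, 5.58 and 5.34 in wild-type hearts. Wild-type replicate 1 lay above DNMTs-Tg replicate 5, and the change of 0.48 did not pass (95% confidence interval 0.0050 to 0.95, adjusted p = 0.188). Mthfd1, the cytosolic enzyme that carries all the activities of this stretch, had 8.44, 8.90 and 8.91 in DNMTs-Tg hearts, against 9.11, 8.93 and 9.002 in wild-type hearts. The groups were apart by a narrow gap, DNMTs-Tg replicate 1 being the lowest, and the change was -0.26 (95% confidence interval -0.62 to 0.10, adjusted p = 0.314). Its other probe sets stood at -0.19 and 0.14. The change of Mthfd2 exceeded that of Mthfd1 by 1.27 within arrays, with no overlap (exact permutation test, 2-sided p = 0.1, adjusted 0.15), and by 0.87 to 2.04 over all 6 combinations of their probe sets, 0 of them with overlap. Against Mthfd1l the difference was 0.53, with overlap (exact 2-sided p = 0.2, adjusted 0.24), and with the other Mthfd2 probe set 1.30, without overlap.

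The dehydrogenases that remove formyl groups both had lower values. Aldh1l1, an enzyme best known from liver and astrocytes, had 4.94, 4.68 and 4.62 in DNMTs-Tg hearts, against 5.94, 5.79 and 5.59 in wild-type hearts. The groups did not overlap. The means were 4.75 ± 0.17 in DNMTs-Tg and 5.77 ± 0.17 in wild-type hearts (SD, n = 3 each), 2.04-fold lower (log2 change -1.03 ± 0.14, SE, adjusted p = 0.0127). In DNMTs-Tg replicates 5 and 6 the signal lay below the 40th percentile of the array (4.70 and 4.72), so the size of this fall is uncertain, and the gene passed the filter mainly through its wild-type arrays. Among all probe sets without the filter it passed as well (adjusted p = 0.0166), and with the filter at the 60th percentile it was not tested. The other Aldh1l1 probe set was below the 40th percentile on every array, at 3.40, 3.31 and 3.09 in DNMTs-Tg hearts and 3.61, 3.60 and 3.56 in wild-type hearts (log2 change -0.33, adjusted p = 0.160).

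Aldh1l2, the mitochondrial counterpart, had 6.10, 5.86 and 5.72 in DNMTs-Tg hearts, against 6.42, 7.05 and 6.58 in wild-type hearts. The groups did not overlap, wild-type replicate 4 was the highest, and the change of -0.79 ± 0.19 (SE) did not pass (adjusted p = 0.0594). It passed without DNMTs-Tg replicate 1 (-0.89, adjusted p = 0.0411), its only call in the 6 fits with an array left out. Without wild-type replicate 4, the array of female type, it stood at -0.61 (adjusted p = 0.156). The changes of Aldh1l2 and Aldh1l1 differed by 0.23, with overlap (exact permutation test, 2-sided p = 0.4, adjusted 0.4 over the 6 pairs). With the dimmer Aldh1l1 probe set, which was below the filter, the difference was -0.47.

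**Figure D2:**
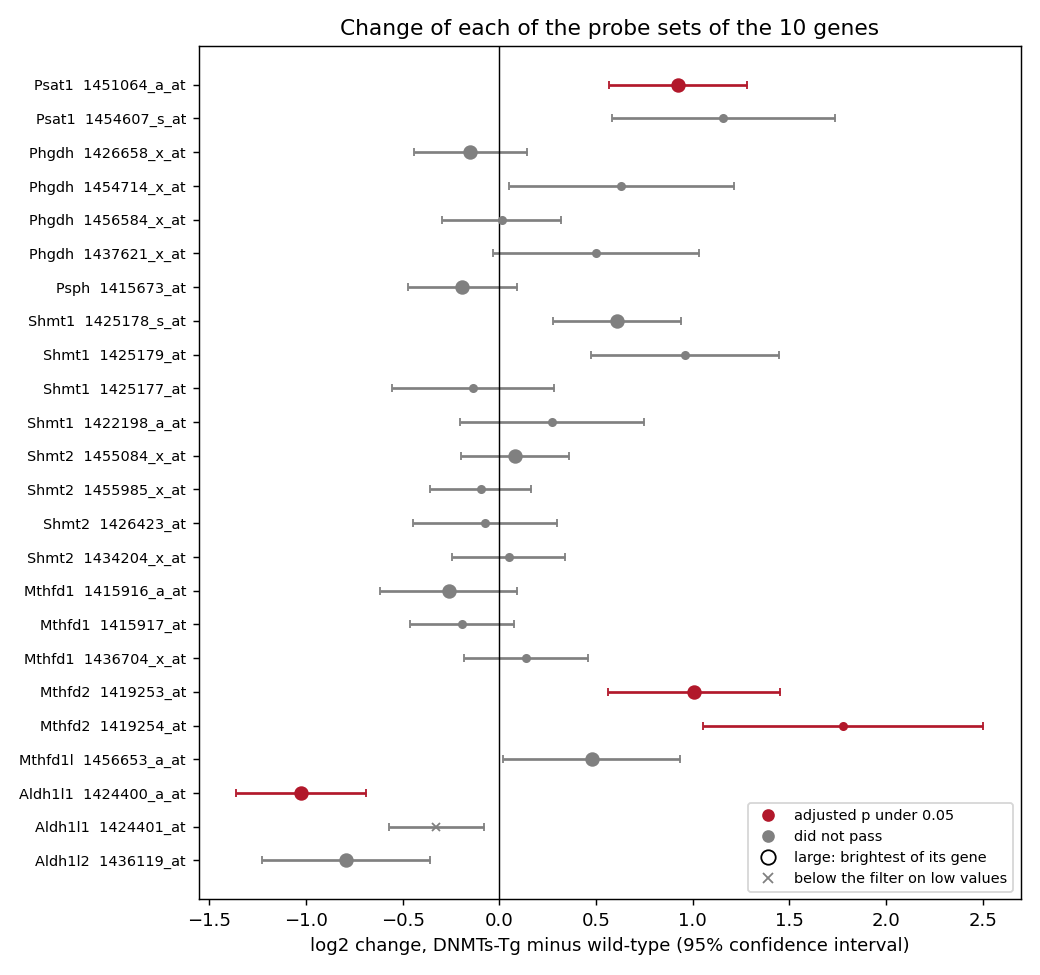
Log2 change (DNMTs-Tg minus wild-type) with its 95% confidence interval for each of the 24 probe sets of the 10 genes, in the fit of all 45037 probe sets without a filter. Red points passed an adjusted p of 0.05: both probe sets of Mthfd2, 1 of 2 of Psat1 and 1 of 2 of Aldh1l1. The probe sets of Phgdh and Shmt1 spread to both sides of 0.

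By probe set, 4 of 24 passed among all 45037, of which 2.11% passed, with 3 higher (0.799% of all probe sets) and 1 lower. Of the 24, 13 did not overlap between the groups, 7 higher and 6 lower in DNMTs-Tg hearts, against 26.5% of all probe sets. The filter on low values kept 23 of the 24, whereas the 45037 include probe sets below it, so these shares are not like for like. In 7 genes more than 1 probe set was read, and in Phgdh, Shmt1, Shmt2 and Mthfd1 they differed in sign.

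The calls depended on single arrays. Psat1, Mthfd2 and Aldh1l1 kept their direction with any 1 array left out, with changes of 0.78 to 1.02, 0.90 to 1.21 and -1.12 to -0.94, but none was called in all 6 fits. DNMTs-Tg replicate 1 was the highest for Psat1 and Mthfd2, and it was also the array with macrophage markers at 1.53. Without it Psat1 stood at 0.78 (adjusted p = 0.0129), Mthfd2 at 0.91 (adjusted p = 0.0445) and Aldh1l1 at -1.12 (adjusted p = 0.00769), all past the threshold. Without DNMTs-Tg replicate 5 all 3 calls were lost (adjusted p = 0.0585 for Psat1, 0.0959 for Mthfd2 and 0.0662 for Aldh1l1), and likewise without wild-type replicate 1 (0.0952, 0.142 and 0.0623, in the same order). Without wild-type replicate 4 Psat1 (0.0962) and Aldh1l1 (0.0598) were lost, and without wild-type replicate 6 Psat1 (0.0750) and Mthfd2 (0.129) were lost.

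**Figure D3:**
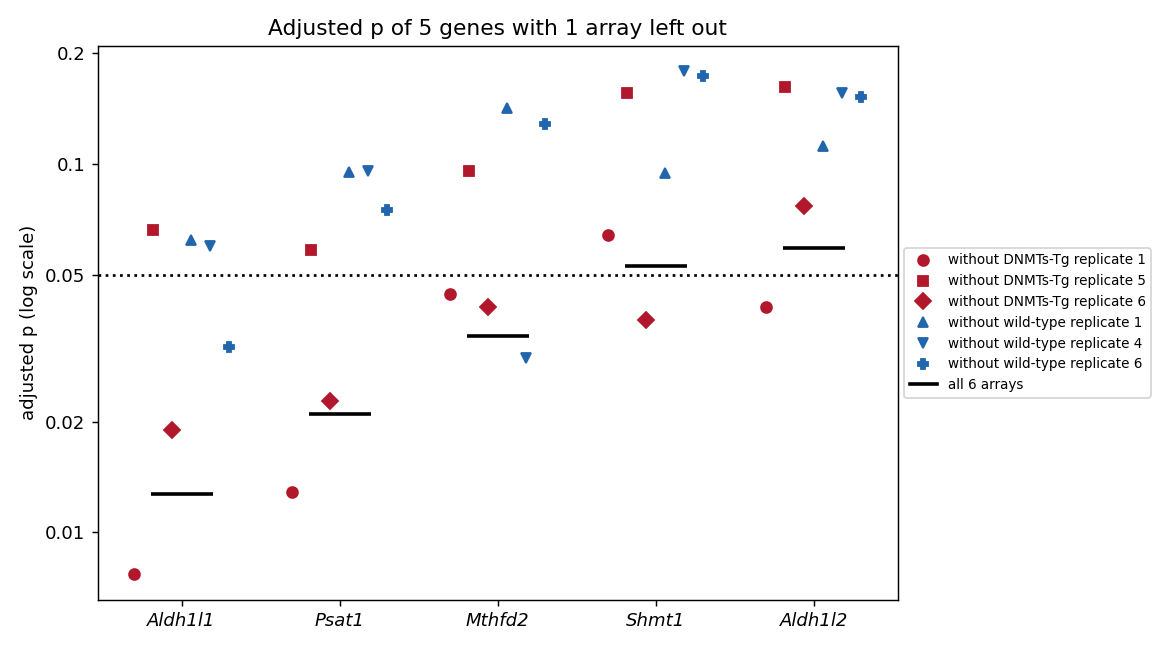
Adjusted p (limma, log scale) of the 5 genes with the smallest p, with each array left out in turn (red, a DNMTs-Tg array left out; blue, a wild-type array left out) and with all 6 arrays (black bars). The dotted line is 0.05. Leaving out DNMTs-Tg replicate 1 kept Aldh1l1, Psat1 and Mthfd2 below it, and leaving out DNMTs-Tg replicate 5 put all 5 genes above it.

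The genes around these enzymes were taken from 7 lists chosen by textbook function, with earlier results of these data known. Over all genes tested, 2.24% passed as higher and 3.15% as lower, and 6924 of 13634 changes lay above 0. An unadjusted p under 0.05 was reached by 26%. In the rest of the folate cycle 1 of 13 tested genes fell and none rose, with 10 changes below 0 and a median of -0.13. Folr2, a folate receptor known from macrophages, had 6.94, 6.37 and 6.58 in DNMTs-Tg hearts, against 7.32, 7.32 and 7.38 in wild-type hearts (log2 change -0.72, adjusted p = 0.0491). The mean of the macrophage markers stood at 1.53 in DNMTs-Tg replicate 1 and at 0.01 and 0.05 in replicates 5 and 6. What part these cells have in the value of Folr2 was not tested. Folr2 was called in 1 of the 6 fits with an array left out, that without DNMTs-Tg replicate 1 (adjusted p = 0.00933). It was lost without DNMTs-Tg replicate 5 (0.129) or 6 (0.0599) and without wild-type replicate 1 (0.168), 4 (0.157) or 6 (0.161). It was also lost with a common median (adjusted p = 0.0585) and with no filter (adjusted p = 0.0564).

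Among genes of glycine cleavage and of choline and sarcosine oxidation, 1 of 6 rose and 1 fell. Aldh7a1, an aldehyde dehydrogenase of lysine breakdown that also makes betaine, had 7.77, 7.57 and 7.56 in DNMTs-Tg hearts, against 9.004, 8.997 and 8.62 in wild-type hearts. It was 2.36-fold lower (log2 change -1.24 ± 0.14, SE, adjusted p = 0.00669) and was called with any 1 array left out. Pipox, a peroxisomal oxidase of pipecolate and sarcosine, had 6.07, 6.08 and 6.22 in DNMTs-Tg hearts, against 5.04, 4.69 and 5.35 in wild-type hearts. It was 2.14-fold higher (log2 change 1.096 ± 0.18, SE, adjusted p = 0.0196). Its call was lost without DNMTs-Tg replicate 5 (adjusted p = 0.0798), wild-type replicate 1 (0.0936) or wild-type replicate 4 (0.0568). The glycine cleavage genes of this list, Gldc (0.31), Gcsh (-0.05) and Dld (-0.35), did not pass.

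In the methionine cycle and transsulfuration 1 of 9 genes fell and none rose. Gnmt, which uses up methyl groups by making sarcosine from glycine, had 5.61, 6.07 and 5.81 in DNMTs-Tg hearts, against 7.24, 7.56 and 6.68 in wild-type hearts. It was 2.51-fold lower (log2 change -1.33 ± 0.24, SE, adjusted p = 0.0267). Its call was lost without DNMTs-Tg replicate 5 (adjusted p = 0.0781), wild-type replicate 1 (0.116) or wild-type replicate 4 (0.0873). Of serine transport and use, 2 of 13 genes rose and none fell. They were Slc1a5, a carrier of neutral amino acids (0.77 ± 0.16, SE, adjusted p = 0.0436), and Ptdss2, which makes phosphatidylserine (0.46 ± 0.08, adjusted p = 0.0281). Ptdss1 of the same list, named after its values were seen, went the other way without overlap and did not pass (-0.39, adjusted p = 0.0851). Slc1a5 had 7.69, 7.29 and 7.34 in DNMTs-Tg hearts, against 6.89, 6.48 and 6.64 in wild-type hearts. With the mean of its kept probe sets Slc1a5 stood at 0.41 (adjusted p = 0.114), and it missed the threshold with no filter (adjusted p = 0.0504). Ptdss2 stood at 0.36 with the mean (adjusted p = 0.0782). Both were lost without DNMTs-Tg replicate 5 (adjusted p = 0.103 for Slc1a5 and 0.102 for Ptdss2), wild-type replicate 1 (0.0947 and 0.132), wild-type replicate 4 (0.158 and 0.132) or wild-type replicate 6 (0.149 and 0.110).

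Of 16 other genes tied to ATF4, 2 rose and none fell, 12 lay above 0, and the median was 0.23. Slc7a5, a subunit of a transporter of large neutral amino acids, had 7.72, 7.15 and 7.36 in DNMTs-Tg hearts, against 6.39, 6.39 and 6.40 in wild-type hearts (2.03-fold higher, log2 change 1.02 ± 0.16, SE, adjusted p = 0.0181). Its call was lost without wild-type replicate 1 (adjusted p = 0.0912), 4 (0.0820) or 6 (0.0750). Eif4ebp1, a repressor of translation, rose by 0.63 (adjusted p = 0.0417). It did not pass with the mean of its kept probe sets (0.32, adjusted p = 0.101), with no trend (adjusted p = 0.05003), or without DNMTs-Tg replicate 5 (0.129) or wild-type replicate 1 (0.171), 4 (0.159) or 6 (0.0863). Other members did not pass, among them Atf4 itself (0.29, adjusted p = 0.549), Asns, the asparagine synthetase (0.36, adjusted p = 0.225), and Trib3 (0.13, adjusted p = 0.451). Of the 4 genes below 0, Cebpb (-0.81, adjusted p = 0.0968) and Vldlr (-0.63, adjusted p = 0.133) had the smallest p. All of these genes that did not pass were named after their values were seen. The mean of this list relative to wild-type was 0.48, 0.06 and 0.08 in DNMTs-Tg replicates 1, 5 and 6, against -0.03 to 0.06 in wild-type hearts. The macrophage markers stood at 1.53, 0.01 and 0.05 and the fibroblast markers at 1.03, 0.15 and 0.12 in the same DNMTs-Tg hearts, and their part in these values was not tested.

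In purine synthesis, which takes up formyl groups, 0 of 10 genes passed with limma and 4 had an unadjusted p under 0.05 (26% of all genes). Prps1 (0.43, adjusted p = 0.0701) and Impdh1 (0.39, adjusted p = 0.0740) came closest. Prps2, named after its values were seen, went the other way (-1.18, adjusted p = 0.0785). Without DNMTs-Tg replicate 6 this list had 2 calls, 1 higher and 1 lower, the higher being Prps1 (0.50, adjusted p = 0.0348). Of 11 cell cycle markers 10 lay above 0 in their change, with a median of 0.32, and 0 passed with limma. An unadjusted p under 0.05 was reached by 2, Birc5 at 1.07 (adjusted p = 0.143) and Pcna at -0.32 (adjusted p = 0.177). Birc5 had 5.45, 4.50 and 5.87 in DNMTs-Tg hearts, against 3.79, 4.78 and 4.05 in wild-type hearts. In DNMTs-Tg replicate 5 and wild-type replicates 1 and 6 it lay below the 40th percentile of the array, so the size of its change is uncertain. The mean of the cell cycle markers relative to wild-type was 0.16, -0.07 and 0.88 in DNMTs-Tg replicates 1, 5 and 6, against -0.09 to 0.17 in wild-type hearts. The part of cycling cells in the levels of the folate enzymes was not tested.

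**Figure D4:**
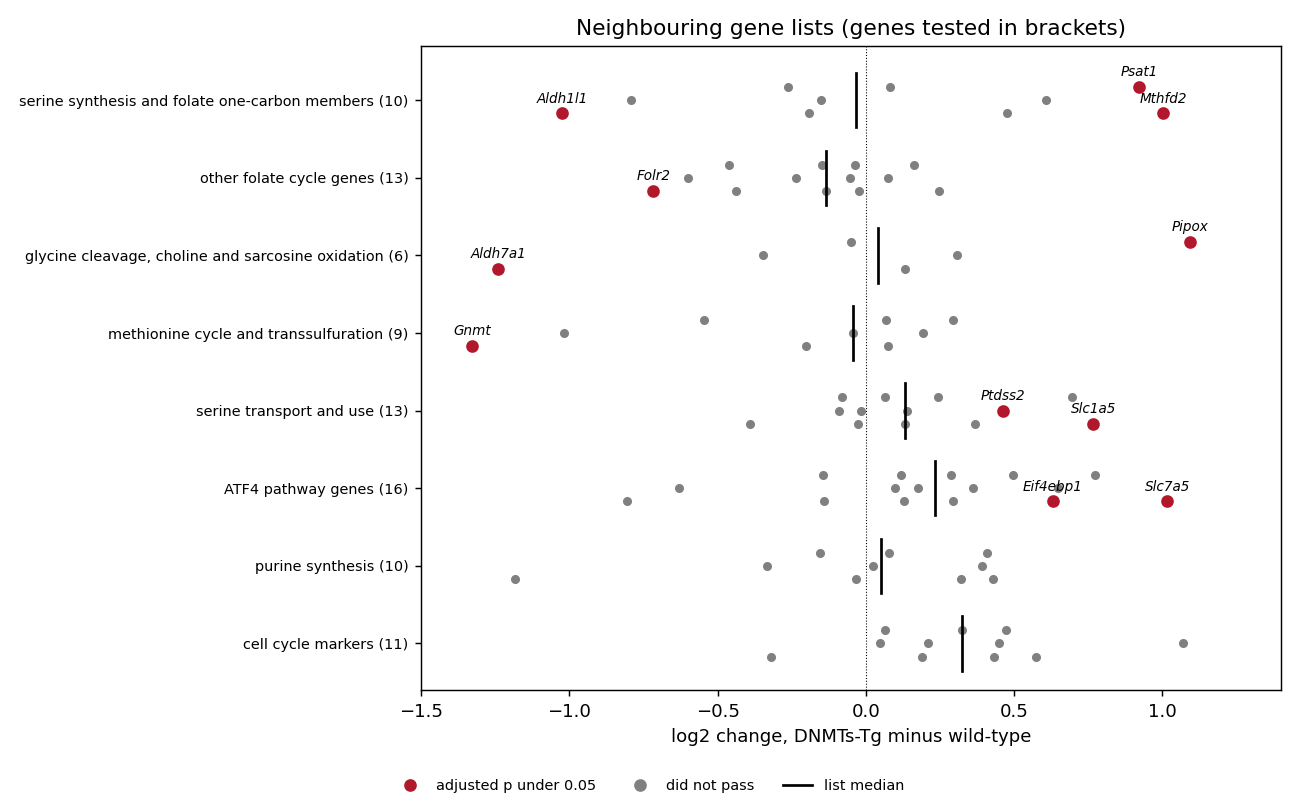
Log2 change (DNMTs-Tg minus wild-type) of each tested gene of the 10-gene set and of the 7 neighbouring lists, with the number tested in brackets. Red points passed an adjusted p of 0.05 over all genes and are named, and black bars are list medians. The medians lie between -0.13 (other folate cycle genes) and 0.32 (cell cycle markers), with changes to both sides of 0 in every list.

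Aldh1l1 had the smallest p of the 10 genes, and the genes whose 6 values ran closest to its own were looked for. Over the 6 arrays, each value taken relative to the wild-type mean, Cdc42bpg was nearest (Euclidean distance 0.077, log2 change -1.01). Oxsr1 (0.24), Fmn1 (0.30), Dpyd (0.33) and Rhot2 (0.34) followed in distance. These are descriptions of likeness over 6 arrays and carry no test.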

How the data were processed

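Per the labels' protocols, RNA of frozen hearts was extracted with a column kit, copied by one-cycle cDNA synthesis and labelled with biotin. The deposited table holds a value for each probe set on each array, taken here as log2 signals because of their range. How the authors corrected background and normalized, and with which software, is not given in the sources used here. Depth has no meaning for arrays, and the 3 arrays per group limit the precision.

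Values were analysed as deposited. Control probe sets and those with several symbols or none were left out, and symbols were updated through gene identifiers. Probe sets with at least 3 of 6 arrays above the 40th percentile of their array were kept. The brightest kept probe set stood for its gene, giving 13634 genes. The 2-sided test was limma's (version 3.58.1 under R 4.3.3, lmFit and eBayes with a trend), with Benjamini-Hochberg adjustment over all genes and a threshold of 0.05. All probe sets were also tested without the filter. The procedure was tested on simulated data. The alternatives are named in the closing section.

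All 10 genes were named. From each other list up to 6 genes past the threshold were named, or else the 2 with the smallest p. Further genes are said to be named after their values were seen, or were given to show the rest of a list (Gldc, Gcsh and Dld). The 10 genes and the lists were chosen with earlier results of these data known.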

Additional observations from a re-analysis of the deposited data

How the results depend on the processing

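Over 10 other settings and 6 fits with 1 array left out, the 10 genes kept their direction in 156 of 158 results. The exceptions, both with the mean of kept probe sets, were Phgdh (0.25) and Shmt2 (-0.0097), whose probe sets differ in sign. With the filter at the 60th percentile 8 of the 10 genes were tested, without Aldh1l1 and Mthfd1l. Then 3 rose (Psat1, Mthfd2 and Shmt1) and 0 fell, so the count stayed at 3 while the call of Aldh1l1 ended. Differences between genes turned with the probe set for Shmt1 and Shmt2 (lowest -0.22) and for Aldh1l2 and Aldh1l1 (lowest -0.47), an alternative chosen after seeing the data. The other 12 named genes kept their direction in all 190 results. The main counts past the threshold were 3 of the 10 genes, 4 of their probe sets, 735 of all genes, 1 other folate gene, 2 of glycine cleavage and sarcosine oxidation, 1 of the methionine cycle, 2 of serine transport and use, 2 of the ATF4 list, 0 in purine synthesis and 0 cell cycle markers. With array weights these were 5, 9, 4822, 7, 2 (as before), 2, 6, 7, 4 and 1, in the same order, and the fit of the weights stopped short of its tolerance for 1 of the tables. The label number as a replicate block gave 0 of the 10 genes, 0 probe sets, 1 of all genes and 0 in each list that had calls. Only the numbers 1 and 6 occur in both groups. After the mean of each group was taken off, same-numbered arrays had r = -0.05 and -0.08. Arrays with unlike numbers had r from -0.07 to 0.11. So few pairs cannot show whether the number is a pairing. At a threshold of 0.10 there were 5 of the 10 genes, 8 probe sets, 1655 genes, 3 folate genes and 3 purine genes. At 0.01 there were 0 of the 10 genes, 0 probe sets, 135 genes, 1 gene of glycine cleavage and sarcosine oxidation, and 0 in the folate, methionine, serine and ATF4 lists. The folate list had 2 calls under quantile normalization, 0 with a common median and 0 without the filter. Glycine cleavage and sarcosine oxidation had 1 with the filter at the 60th percentile, which tested fewer of its genes. Serine transport and use had 1 without the filter and 0 with the mean of probe sets. The ATF4 list had 1 with that mean and 1 with no trend. With 1 array left out the counts ranged from 0 to 4 for the 10 genes (4 without DNMTs-Tg replicate 1 or 6, 0 without DNMTs-Tg replicate 5 or wild-type replicate 1, 1 without wild-type replicate 4 or 6). They ranged from 0 to 6 for probe sets, 123 to 1604 for all genes, 0 to 3 for folate, 1 to 2 for glycine cleavage and sarcosine oxidation, 0 to 1 for methionine, 0 to 2 for serine, 0 to 4 for ATF4 and 0 to 2 for purine genes. A fit with an array left out also has fewer arrays, and the cause of these shifts was not tested. Signal below the 40th percentile limits the size given for Aldh1l1.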
